A study of Mus musculus with 13 samples.

Results

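The 10 genes described here carry fatty acids from circulating lipoproteins into fat and through the cell. They are the rows of the raw count table that correspond to *Lpl*, *Gpihbp1*, *Angptl4*, *Cd36*, *Slc27a1*, *Fabp4*, *Fabp5*, *Vldlr*, *Apoe* and *Apoc1*. The genes were chosen by their role, with earlier results of these data already known. Each of the 10 was found in 1 row of the 34419 in the table, and all 10 were abundant enough to be tested. RNA-seq was performed on gluteal white adipose tissue (WAT), a subcutaneous fat depot, of male C57BL/6J mice. The animals were kept from birth until 13 weeks of age at 22°C, which is cool for a mouse (7 libraries), or at 29°C, which is close to thermoneutral (6 libraries). Both groups lost the hair of the posterior body after weaning, no mice with hair are part of the comparison, and the animals lived singly with little bedding and no nesting material. The labels number the libraries as replicates and do not name animals, so p-values measure the spread between these libraries. Totals were between 22356637 and 25245785 counts per library and fell into a lower cluster of 5 libraries, all at 22°C, and a higher cluster of 8 with 2 libraries at 22°C and the 6 at 29°C.

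Fatty acids travel in blood mostly as triglyceride inside lipoproteins. Lipoprotein lipase, made by adipocytes, is carried across capillary endothelium by GPIHBP1, frees fatty acids on the vessel wall and is inactivated by ANGPTL4. The fatty acids enter adipocytes with the help of CD36 and the acyl-CoA-forming transporter FATP1, the product of *Slc27a1*, and are bound inside the cell by FABP4 and FABP5. VLDLR holds triglyceride-rich particles at the cell surface, and the apolipoproteins E and C1 ride on those particles and are also made by macrophages and adipocytes. In white fat this program is known mainly for its response to feeding and fasting, and several of its genes are classical targets of PPARγ.

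None of the 10 genes differed between 22°C and 29°C at an adjusted p (P-adj, Benjamini-Hochberg) below 0.1 in edgeR's quasi-likelihood test, which called 345 of 17779 genes over the whole table (1.94%). At an unadjusted p below 0.05, *Slc27a1* was higher and *Apoe* lower at 22°C, that is 2 of 10 genes, beside 18.5% of all genes tested (10.3% higher and 8.2% lower). No gene of the 10 had groups that did not overlap, beside 1.24% of all genes. By the sign of the fitted difference alone 4 genes were higher and 6 lower at 22°C, and their median log2 fold change was -0.05, beside 0.0074 for all genes. For *Lpl*, *Gpihbp1*, *Cd36*, *Fabp4* and *Apoc1*, the 95% intervals of the fold at 22°C over 29°C all lay between 0.701 and 1.34 and held 1. DESeq2, which called 10.2% of its genes, called 1 of the 10, *Slc27a1*, at a P-adj of 0.0994.

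**Figure D1:**
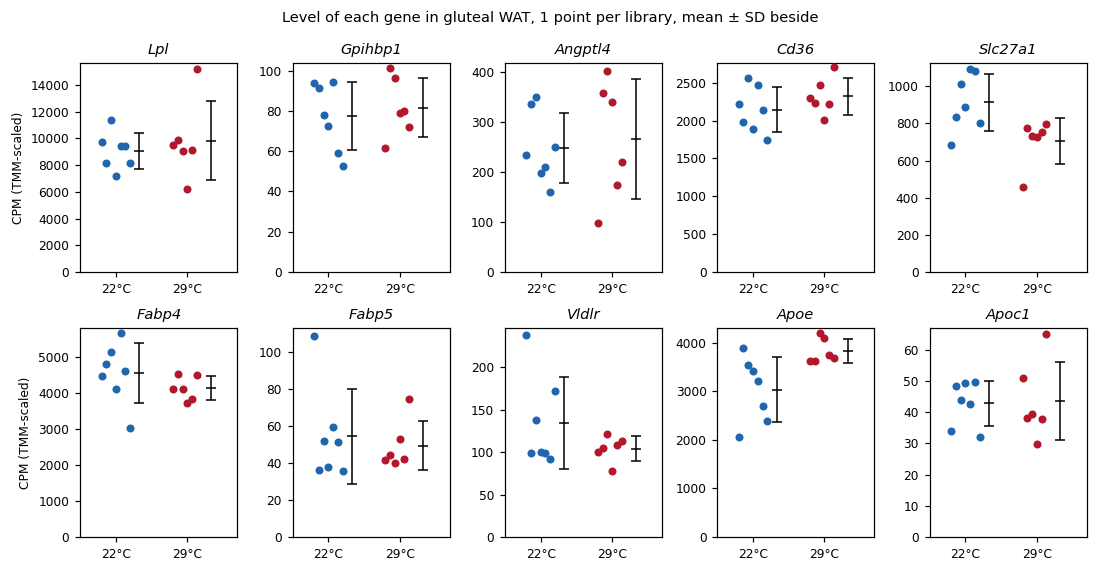
Level of each of the 10 genes in gluteal WAT, in CPM (TMM-scaled, linear axis from 0), with 1 point per library (blue, 7 at 22°C; red, 6 at 29°C) and the mean ± SD beside each group. The 2 groups overlap in every panel, and single libraries stand apart for *Slc27a1* at 29°C (459.6 CPM) and for *Fabp5* at 22°C (108.8 CPM).

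Sequence upstream of the gene is shown for the 2 genes with an unadjusted p below 0.05, *Slc27a1* and *Apoe*, and for *Cd36*, the gene whose level followed that of *Lpl*. Each run is the 250 bases before a RefSeq transcription start on the gene's own strand (GRCm38.p6), and capitals mark AGGTCA or its reverse complement TGACCT, the half-site that nuclear receptors such as PPARγ bind. The windows lie at chr5:17835897-17836146 on the minus strand for *Cd36*, chr8:71568621-71568870 on the plus strand for *Slc27a1*, and chr7:19699189-19699438 on the minus strand for *Apoe*.
Cd36: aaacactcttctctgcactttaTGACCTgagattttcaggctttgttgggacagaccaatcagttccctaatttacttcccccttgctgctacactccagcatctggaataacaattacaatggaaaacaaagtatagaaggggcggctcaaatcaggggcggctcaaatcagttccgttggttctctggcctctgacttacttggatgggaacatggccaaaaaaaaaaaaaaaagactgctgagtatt
Slc27a1: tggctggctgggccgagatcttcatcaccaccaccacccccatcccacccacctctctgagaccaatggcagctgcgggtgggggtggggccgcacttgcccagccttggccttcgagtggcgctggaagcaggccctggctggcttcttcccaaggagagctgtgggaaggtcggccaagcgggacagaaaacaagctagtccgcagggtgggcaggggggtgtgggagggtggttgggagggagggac
Apoe: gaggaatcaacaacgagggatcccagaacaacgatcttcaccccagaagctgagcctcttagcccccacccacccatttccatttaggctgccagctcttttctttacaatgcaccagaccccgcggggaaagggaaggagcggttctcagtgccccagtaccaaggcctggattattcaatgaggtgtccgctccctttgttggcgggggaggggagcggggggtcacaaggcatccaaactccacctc
Windows were at hand for 4 of the 10 genes, namely *Cd36*, *Slc27a1*, *Vldlr* and *Apoe*, which have 9 windows among them because a gene can have several starts. Of these 9, 1 held the hexamer, that of *Cd36*, 228 bases before the start. The hexamer was in 14% of all 32851 promoter windows of this length, searched on both strands. A match of these letters is a description and not a binding site. *Lpl*, *Gpihbp1*, *Angptl4*, *Fabp4*, *Fabp5* and *Apoc1* had no window.

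The 10 genes spanned a wide range of abundance. Per kilobase of the principal transcript, *Fabp4* came first with a median over the 13 libraries of 4971 CPM (counts scaled to a common library size by the TMM method) per kilobase, followed by *Apoe* with 2573 and *Lpl* with 2294. *Fabp4* was above *Apoe* in 13 of 13 libraries, whereas *Apoe* was above *Lpl* in 7 of 13, so the order of the latter pair is within the spread. *Cd36* followed with a median of 654 CPM per kilobase and *Slc27a1* with 284, and the ranges of these genes did not overlap those of their neighbours. *Gpihbp1* (95.7 CPM per kilobase), *Apoc1* (80.2), *Angptl4* (70.8) and *Fabp5* (44.8) formed a lower tier whose neighbours overlapped. *Vldlr* was lowest, with a median of 13.1 CPM per kilobase, below *Fabp5* in every library. This order depends on the length used: over the union of all annotated exons *Apoe* came before *Fabp4*, and *Angptl4*, *Apoc1* and *Gpihbp1* took ranks 6, 7 and 8. In reads, the 10 genes summed to between 16631 and 24290 CPM at 22°C and between 17353 and 27425 CPM at 29°C. *Lpl* alone supplied 35.9% to 55.4% of that sum.

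*Lpl* (ENSMUSG00000015568.17) encodes lipoprotein lipase. Its level at 22°C was 7219 CPM at the lowest, 9441 CPM at the median and 11396 CPM at the highest, and at 29°C 6236, 9327 and 15186 CPM. The highest and the lowest library of all 13 were both at 29°C, replicates 6 and 4, and the 7 libraries at 22°C lay between them. The mean was 9064 ± 1372 CPM at 22°C (SD, n = 7) and 9834 ± 2926 CPM at 29°C (SD, n = 6). The log2 fold change was -0.12 (SE 0.18, edgeR P-adj = 0.774), with a 95% interval of the fold from 0.701 to 1.21. Without replicate 6 at 29°C, its sign turned to a log2 fold change of 0.05.

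*Gpihbp1* (ENSMUSG00000022579.11), whose product anchors the lipase on capillary endothelium, was 52.7 CPM at the lowest, 77.9 at the median and 94.1 at the highest at 22°C, and 61.6, 79.5 and 101 CPM at 29°C. The 2 groups covered nearly the same range, and the 2 lowest libraries were replicates 7 and 6 at 22°C, the only 2 of that temperature among the libraries with higher totals. The log2 fold change was -0.08 (SE 0.15, edgeR P-adj = 0.826) over all libraries. Within the libraries with higher totals, 2 at 22°C against 6 at 29°C, it was -0.56 (edgeR P-adj = 0.292). *Gpihbp1* RNA comes from endothelial cells, and the ratio of *Gpihbp1* to *Lpl* counts within a library compares the carrier with its cargo without any scaling. The mean log2 ratio was -6.89 ± 0.36 at 22°C (SD, n = 7) and -6.88 ± 0.53 at 29°C (SD, n = 6), with no difference beyond the spread (exact permutation test, two-sided, p = 0.978).

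*Angptl4* (ENSMUSG00000002289.17) encodes the secreted lipase inhibitor that rises on fasting. At 22°C it was 161 CPM at the lowest, 234 at the median and 349 at the highest, and at 29°C 97.0, 280 and 402 CPM. Among the libraries at 29°C it was the most spread of the 10 genes, with a coefficient of variation of 45.1% beside 28.3% at 22°C, and its replicates 2, 3 and 4 were high while replicates 1, 5 and 6 were low. Its log2 fold change was -0.10 (SE 0.29, edgeR P-adj = 0.890), with an interval of the fold from 0.603 to 1.45. The log2 ratio of *Angptl4* to *Lpl* was -5.23 ± 0.41 at 22°C (SD, n = 7) and -5.32 ± 0.97 at 29°C (SD, n = 6), again without a difference beyond the spread (exact permutation test, two-sided, p = 0.822).

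*Cd36* (ENSMUSG00000002944.16) encodes the membrane glycoprotein that takes up long-chain fatty acids. It was among the steadiest of the 10 genes, with 1747 CPM at the lowest, 2142 at the median and 2558 at the highest at 22°C, and 2008, 2262 and 2713 CPM at 29°C. The mean was 2146 ± 298 CPM at 22°C (SD, n = 7) and 2323 ± 243 CPM at 29°C (SD, n = 6). This gave a log2 fold change of -0.11 (SE 0.11, edgeR P-adj = 0.627), and the interval of the fold, from 0.781 to 1.09, was the narrowest of the 10.

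*Slc27a1* (ENSMUSG00000031808.8) encodes FATP1, a transporter that activates fatty acids to acyl-CoA and is also made in skeletal muscle. It had the smallest p of the 10. At 22°C its level was 683 CPM at the lowest, 890 at the median and 1093 at the highest, and at 29°C 460, 742 and 795 CPM. In 6 of 7 libraries at 22°C it was above the highest library at 29°C, and the exception was replicate 1 with 683 CPM. Replicate 1 at 29°C, with 460 CPM, lay well below the other 5 libraries of its group, which were between 726 and 795 CPM. The mean was 914 ± 154 CPM at 22°C (SD, n = 7) and 707 ± 124 CPM at 29°C (SD, n = 6), a log2 fold change of 0.37 (SE 0.14), or 1.29-fold with an interval from 1.04 to 1.60. The unadjusted p was 0.0228 and the P-adj 0.205 in edgeR, so the gene was not called. The sign held in each of the 27 alternatives run for it, in which the log2 fold change was between 0.27 and 0.59 and the P-adj between 0.0994 and 0.473. Only DESeq2, at 0.0994, was below 0.1.

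*Fabp4* (ENSMUSG00000062515.4), the abundant fatty acid binding protein of adipocytes, was 3031 CPM at the lowest, 4606 at the median and 5655 at the highest at 22°C, and 3705, 4095 and 4519 CPM at 29°C. The libraries at 29°C were tightly grouped and lay within the range at 22°C. The log2 fold change was 0.14 (SE 0.13, edgeR P-adj = 0.624). Within the libraries with higher totals its sign turned, to -0.12 (edgeR P-adj = 0.827).

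*Fabp5* (ENSMUSG00000027533.11), the epidermal type of fatty acid binding protein, which adipocytes, macrophages and endothelium also make, was far less abundant. At 22°C it was 35.5 CPM at the lowest, 51.6 at the median and 109 at the highest, and at 29°C 40.0, 43.1 and 74.4 CPM. Replicate 1 at 22°C held the highest value, 109 CPM, and the next library of that group had 59.6 CPM. Its log2 fold change was 0.15 (SE 0.26, edgeR P-adj = 0.800), and without that replicate it was -0.12 (edgeR P-adj = 0.793). The log2 ratio of *Fabp5* to *Fabp4* was -6.46 ± 0.53 at 22°C (SD, n = 7) and -6.42 ± 0.32 at 29°C (SD, n = 6), with an exact two-sided permutation p of 0.883. *Fabp5* has near-identical processed copies in the mouse genome, so its count may have lost or gained reads in the authors' counting.

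*Vldlr* (ENSMUSG00000024924.15) encodes the very low density lipoprotein receptor, which is also made in skeletal and heart muscle. At 22°C it was 92.0 CPM at the lowest, 101 at the median and 238 at the highest, and at 29°C 77.8, 106 and 121 CPM. The medians were close, and the higher mean at 22°C, 134 ± 54.2 CPM (SD, n = 7) against 104 ± 14.8 CPM at 29°C (SD, n = 6), came with replicate 1 at 238 CPM and replicate 7 at 172 CPM. The log2 fold change was 0.37 (SE 0.22, edgeR P-adj = 0.388) over all libraries. Without these 2 replicates, which had the highest skeletal muscle marker scores of the series, it was 0.02 (edgeR P-adj = 0.959).

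*Apoe* (ENSMUSG00000002985.17), which encodes the ligand by which lipoprotein remnants are cleared, had most of its lower values at 22°C. Its level was 2058 CPM at the lowest, 3209 at the median and 3894 at the highest at 22°C, and 3622, 3715 and 4190 CPM at 29°C. In 6 of 7 libraries at 22°C it was below the lowest library at 29°C, and replicate 2 with 3894 CPM was the exception. The coefficient of variation was 22.1% at 22°C and 6.54% at 29°C, the smallest of any gene and group here. The mean was 3027 ± 668 CPM at 22°C (SD, n = 7) and 3828 ± 250 CPM at 29°C (SD, n = 6). The log2 fold change was -0.34 (SE 0.15), or 1.26-fold higher at 29°C, with an unadjusted p of 0.0357 and a P-adj of 0.237 in edgeR. Replicates 1 and 7 at 22°C had the 2 lowest values, 2058 and 2379 CPM, and the log2 fold change without them was -0.19 (edgeR P-adj = 0.415). Within the libraries with higher totals it was -0.60 (edgeR P-adj = 0.259).

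*Apoc1* (ENSMUSG00000040564.15), a small apolipoprotein encoded beside *Apoe*, was 31.9 CPM at the lowest, 44.0 at the median and 49.7 at the highest at 22°C, and 29.8, 38.8 and 65.2 CPM at 29°C. Both the lowest and the highest of the 13 libraries were at 29°C, and the log2 fold change was -0.02 (SE 0.17, edgeR P-adj = 0.962). The log2 ratio of *Apoc1* to *Apoe* was -6.13 ± 0.22 at 22°C (SD, n = 7) and -6.50 ± 0.45 at 29°C (SD, n = 6). The difference of 0.37 had an exact permutation p of 0.0793 (two-sided) and 0.317 after adjustment over the 4 ratios computed. Replicate 6 at 29°C had the highest *Apoc1* and the highest ratio of its group, and without it the difference was 0.51 (exact permutation test, adjusted p = 0.0354). In the other 12 fits that left out 1 library the difference was between 0.25 and 0.44, with adjusted p from exact permutation tests between 0.212 and 0.712.

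**Figure D2:**
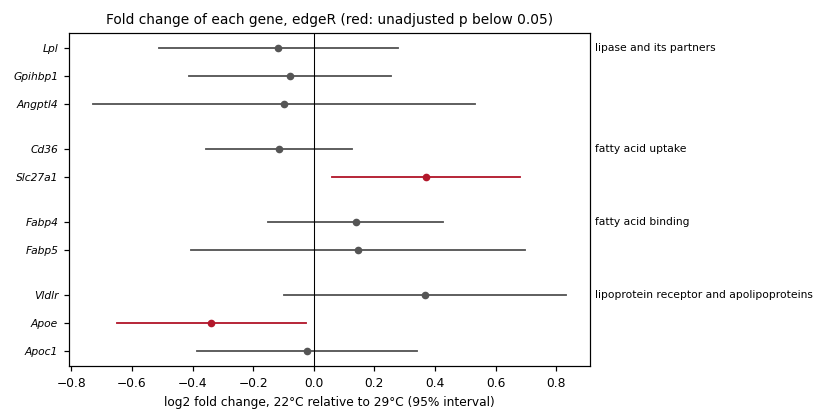
Log2 fold change of each of the 10 genes at 22°C relative to 29°C from edgeR (points, log2 axis) with its 95% interval (lines), grouped by role. The intervals of *Slc27a1* (0.37) and *Apoe* (-0.34), in red for an unadjusted p below 0.05, leave out 0, and neither gene had a P-adj below 0.1.

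The 10 adipocyte markers, led by *Cfd* and *Plin4*, were all measured. They summed to between 23965 and 35185 CPM at 22°C and between 30730 and 37884 CPM at 29°C. Whether the fat came from the gluteal depot was not tested. Skeletal muscle RNA varied most between libraries. The 12 muscle markers, such as *Acta1* and *Myh4*, were all on the higher side at 22°C, with a median difference of 2.97 on the log2 scale. None was called by edgeR, and 7 had an unadjusted p below 0.05, beside 10.3% of all genes higher at that level. The muscle markers took 0.0807% to 6.79% of counts at 22°C and 0.0163% to 0.645% at 29°C. Their score (the list averaged in log2 CPM) was highest in replicates 1 and 7 at 22°C (11.6 and 11.2), the libraries in which *Vldlr* was highest and *Apoe* lowest. With that score as a covariate, the log2 fold change of *Slc27a1* was 0.59 (edgeR P-adj = 0.111), that of *Vldlr* 0.12 (edgeR P-adj = 0.892) and that of *Apoe* -0.24 (edgeR P-adj = 0.611). Macrophage markers, whose cells make *Apoe* and *Apoc1*, summed to between 742 and 1519 CPM at 22°C and between 805 and 1536 CPM at 29°C, and the 12 capillary endothelium markers to between 860 and 1114 CPM and between 867 and 1172 CPM, with 0 of 12 called by edgeR in either list and 0 and 1 with an unadjusted p below 0.05. The most abundant of these were *Lyz2* and *Csf1r* for macrophages and *Rgcc* and *Pecam1* for endothelium. In whole tissue, fewer cells of a type and less RNA per cell cannot be told apart.

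Of the 8 lists of other cell types beside muscle and adipocytes, those of brown fat and lymphocytes held called genes. Over all genes tested, edgeR called 0.731% higher and 1.21% lower at 22°C. Brown fat markers had 3 of 9 tested genes called, all higher at 22°C, among them *Cox8b* (50.1 ± 40.9 CPM, SD, n = 7, against 10.4 ± 6.11 CPM, SD, n = 6), with *Kcnk3* next in abundance and the list summing to at most 272 CPM in any library. In replicates 1 and 7 at 22°C, which had the highest skeletal muscle marker scores, *Cox8b* was 111 and 109 CPM. In the other libraries at 22°C it was between 21.2 and 33.6 CPM, and the highest library at 29°C had 19.7 CPM. *Cidea*, of the same list, was between 4.07 and 24.7 CPM at 22°C and between 1.39 and 3.17 CPM at 29°C. Replicates 1 and 7 at 22°C held its highest and its lowest value of that group, 24.7 and 4.07 CPM. *Ucp1*, also in the brown fat list, had at most 7 counts in any library. Lymphocyte markers, led by *Ptprc* and *Cd79b*, had 1 of 8 called, higher at 22°C, and all 8 were on the higher side by sign. The lists of epidermis (led by *Krt5* and *Dsp*), luminal epithelium (*Prom2* and *Krt19*), adipocyte progenitors (*Col1a1* and *Dcn*) and Schwann cells (*Pmp22* and *Mbp*) had 0 called by edgeR, with 1 Schwann cell gene at an unadjusted p below 0.05. Among the 10 adipocyte markers *Lep*, which encodes leptin, was called lower (735 ± 151 CPM at 22°C, SD, n = 7, against 1261 ± 227 CPM at 29°C, SD, n = 6, edgeR P-adj = 0.0564), the 1 gene called in its list and named after its values were seen. No marker of any list was at 0 in all libraries, and the part of these lists in the levels of the 10 genes was not tested beyond the covariate fits.

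**Figure D3:**
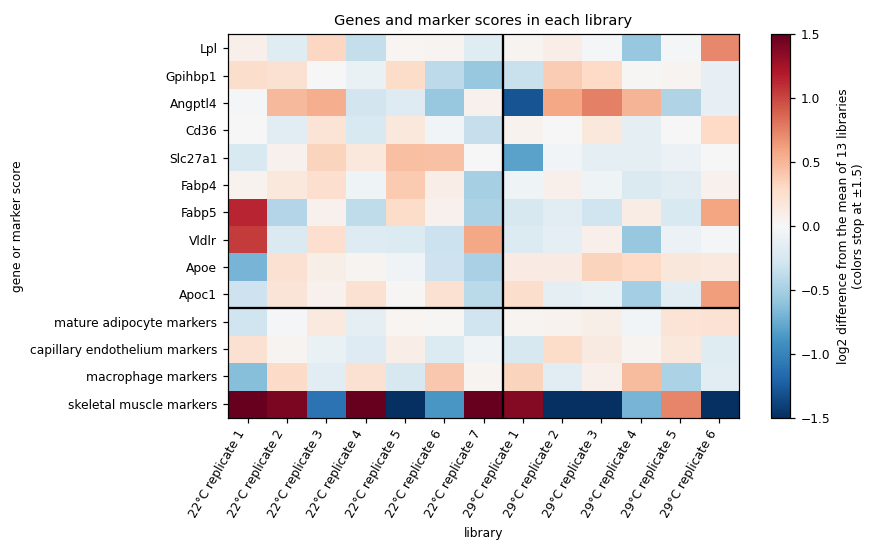
Each of the 10 genes (upper rows) and 4 marker scores (lower rows) in each of the 13 libraries, as the log2 difference from the mean of all libraries (red higher, blue lower, colors stop at 1.5 either way), with 22°C left of the vertical line and 29°C right of it. Replicates 1 and 7 at 22°C combine the highest muscle scores (11.6 and 11.2) with the highest *Vldlr* and the lowest *Apoe*.

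Across the 13 libraries, 11 relations were computed among these genes and marker scores on log2 CPM, with permutation p-values (100000 resamples, two-sided) adjusted over the 11. *Lpl* and *Cd36* varied together, with Pearson r = 0.78 (raw permutation p = 0.00134, adjusted p = 0.0126) and Spearman rho = 0.75 (raw permutation p = 0.00439, adjusted p = 0.0241). The relation was as strong after each group's mean was removed (r = 0.79) and without the 2 libraries farthest from the median of *Lpl* (r = 0.79). Within the 8 libraries with higher totals r was 0.74, with an exact permutation p of 0.0446 and an adjusted p of 0.164. *Gpihbp1* followed the score of capillary endothelium markers, with r = 0.78 (raw permutation p = 0.00229, adjusted p = 0.0126) and rho = 0.85 (raw permutation p = 0.00056, adjusted p = 0.00616). Without the 2 farthest libraries r was 0.68, and within the libraries with higher totals it was 0.80 (exact permutation test, adjusted p = 0.164). These genes share each library's scaling and its makeup of cells.

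*Cd36* and *Fabp4* had r = 0.63 (raw permutation p = 0.0208, adjusted p = 0.0761) and rho = 0.40 (raw permutation p = 0.174, adjusted p = 0.467) over all libraries, and r = 0.80 (permutation test, adjusted p = 0.00293) after group means were removed. Without the 2 libraries farthest from the median of *Cd36*, r was 0.45 and 0.71 in these cases. *Slc27a1* had r = -0.24 with the muscle score (raw permutation p = 0.424, adjusted p = 0.583) and rho = -0.19 (raw permutation p = 0.529, adjusted p = 0.728). After group means were removed the relation was r = -0.79 (permutation test, adjusted p = 0.00293), so libraries richer in muscle RNA held less *Slc27a1* for their temperature, and r was -0.75 without the 2 libraries farthest from the median score. It was -0.21 within the 8 libraries with higher totals, where group means were kept. *Lpl* had r = -0.55 with the muscle score (raw permutation p = 0.0508, adjusted p = 0.140) and rho = -0.47 (raw permutation p = 0.109, adjusted p = 0.401). For *Lpl* and its 2 partners r was 0.03 with *Gpihbp1* and -0.12 with *Angptl4* (permutation tests, adjusted p = 0.932 and 0.766), and rho was 0.03 and -0.03. *Fabp4* with *Fabp5* (r = 0.38), *Apoe* with *Apoc1* (r = 0.25), and *Apoe* and *Apoc1* with the macrophage score (r = 0.35 and 0.16) did not pass, with rho between 0.03 and 0.35, raw permutation p for r between 0.204 and 0.599 and adjusted p between 0.432 and 0.732.

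**Figure D4:**
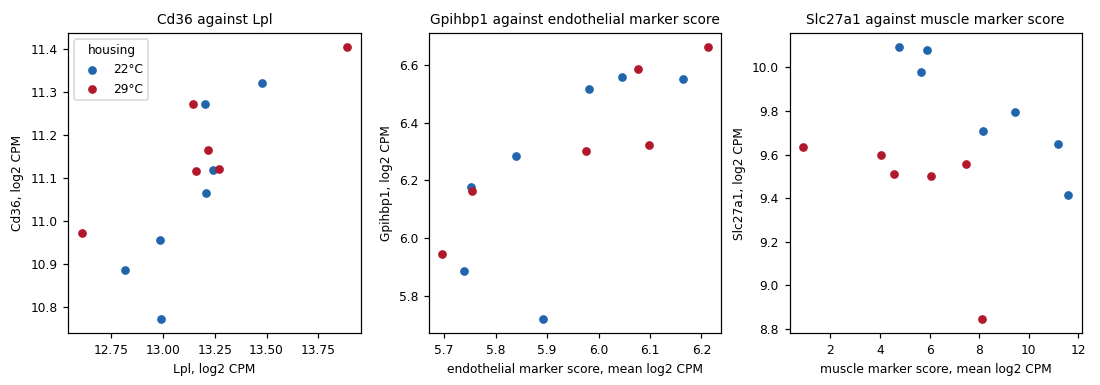
Relations across the 13 libraries in log2 CPM (blue 22°C, red 29°C): *Cd36* against *Lpl* (r = 0.78), *Gpihbp1* against the capillary endothelium marker score (r = 0.78) and *Slc27a1* against the skeletal muscle marker score (r = -0.24). In the right panel the libraries at 22°C lie above those at 29°C at like scores, and 1 library at 29°C lies lowest.

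For *Slc27a1*, the gene of the 10 with the smallest p, the genes with the most similar pattern over the 13 libraries were *Kctd13* (r = 0.90), *Mcoln1* (r = 0.86) and *Rnf167* (r = 0.86), the 3 highest Pearson correlations of log2 CPM among all genes tested. With group means removed these were 0.84, 0.82 and 0.86, and without the 2 farthest libraries 0.86, 0.69 and 0.74. *Kctd13* differed by a log2 fold change of 0.33 (edgeR P-adj = 0.148), and *Mcoln1* and *Rnf167* by 0.07 and 0.08.

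Beyond the 10 genes, 61 others of lipoprotein lipolysis, fatty acid uptake, binding and lipoprotein handling were listed by role, and 47 passed the filter on low counts. None was called by edgeR. By sign 12 were higher and 35 lower at 22°C, beside 51.6% higher and 48.4% lower over all genes. The median log2 fold change of the 47 was -0.09. Of the 10 adipocyte markers, 3 were higher and 7 lower by sign, with a median of -0.13. At an unadjusted p below 0.05, 5 of the pathway genes were higher and 7 lower, 12 of 47 beside 18.5% of all genes. DESeq2 called 8 of the 45 genes it gave an adjusted p (17.8%), 2 higher and 6 lower, beside 10.2% of all its genes (5.58% higher and 4.65% lower).

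Of the 7 lower genes at that level, 4 were in the list of fatty acid uptake and activation. Here and in the pathway paragraphs that follow, the named genes that were not the most abundant of their list were chosen after their values were seen. *Cav1*, which encodes the main coat protein of caveolae and is abundant in adipocytes, was 2510 ± 400 CPM at 22°C (SD, n = 7) and 3372 ± 375 CPM at 29°C (SD, n = 6), a log2 fold change of -0.43 (SE 0.12, edgeR P-adj = 0.127). *Cavin1*, which encodes a protein that shapes caveolae, was 908 ± 147 CPM at 22°C (SD, n = 7) and 1172 ± 75.6 CPM at 29°C (SD, n = 6), with a log2 fold change of -0.37 (edgeR P-adj = 0.144). It was the 1 gene of the 47 whose groups did not overlap, beside 1.24% of all genes. Its highest library at 22°C had 1037 CPM and its lowest at 29°C 1058 CPM. *Cav2* was lower by a log2 fold change of -0.33 (edgeR P-adj = 0.198) and *Acsl5*, an acyl-CoA synthetase, by -0.21 (edgeR P-adj = 0.185). With the muscle score as a covariate *Cav1* was at -0.28 and *Cavin1* at -0.22 (edgeR P-adj = 0.403 and 0.449).

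Among regulators of the lipase, *Pcsk6*, which encodes a proprotein convertase, was 120 ± 10.5 CPM at 22°C (SD, n = 7) and 156 ± 26.3 CPM at 29°C (SD, n = 6), a log2 fold change of -0.38 (SE 0.10, edgeR P-adj = 0.113), the smallest P-adj of the 47. It was below 0.1 without replicate 6 at 22°C (P-adj = 0.0949, edgeR, with *Cav1* at 0.0821), where 3.7% of all genes were called, and without replicate 1 at 29°C (P-adj = 0.0874, edgeR), where 0.506% were. *Sel1l*, which encodes an ER factor that lipase folding needs and the most abundant gene of its list, was 148 ± 5.99 CPM at 22°C (SD, n = 7) and 151 ± 8.18 CPM at 29°C (SD, n = 6). Of lipoprotein receptor genes, *Lrp1* was at 1010 ± 127 and 1073 ± 166 CPM (SD, n = 7 and 6), and *Lrpap1*, whose product escorts LRP1 through the ER, had a log2 fold change of -0.20 (edgeR P-adj = 0.161). *Dbi*, the acyl-CoA binding protein, differed by -0.21 (edgeR P-adj = 0.478), and *Abca1*, the cholesterol exporter, by -0.06 (edgeR P-adj = 0.736).

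Of the 5 genes higher at an unadjusted p below 0.05, *Fabp3* and *Acsl6* had the largest differences, 2.76 and 2.80 on the log2 scale (edgeR P-adj = 0.203 and 0.221). *Fabp3* encodes the heart and muscle type of fatty acid binding protein, and it lay between 0.997 and 63.9 CPM in the 22°C libraries, against 0.379 to 6.64 CPM in those at 29°C. Both genes were highest in replicates 1, 7 and 4 at 22°C, the 3 libraries with the highest muscle scores, and in the first pair of these *Fabp3* was 63.9 and 46.5 CPM and *Acsl6* 35.7 and 32.5 CPM. With the muscle score as a covariate their log2 fold changes turned to -0.31 and -0.38 (edgeR P-adj = 0.801 and 0.646). *Pltp*, the phospholipid transfer protein, was 262 ± 49.5 CPM at 22°C (SD, n = 7) and 208 ± 28.9 CPM at 29°C (SD, n = 6), with a log2 fold change of 0.33 (edgeR P-adj = 0.211). It was called without replicates 1 and 7 at 22°C, at 0.45 (edgeR P-adj = 0.0922), where 1.47% of all genes were called, and with the macrophage score as a covariate, at 0.34 (edgeR P-adj = 0.0829), where 3% were. *Lipg*, the endothelial lipase, and *Ppara* were the other two. *Vegfb*, listed under endothelial fatty acid transport, was 197 ± 27.2 CPM at 22°C (SD, n = 7) and 229 ± 17.8 CPM at 29°C (SD, n = 6), a log2 fold change of -0.21 (edgeR P-adj = 0.227). It was called without replicate 3 at 22°C (edgeR P-adj = 0.0989), where 1.22% of all genes were called. Of the transcription factors, *Cebpa*, the most abundant, differed by 0.07 (edgeR P-adj = 0.799) and *Pparg* by -0.20 (edgeR P-adj = 0.310).

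**Figure D5:**
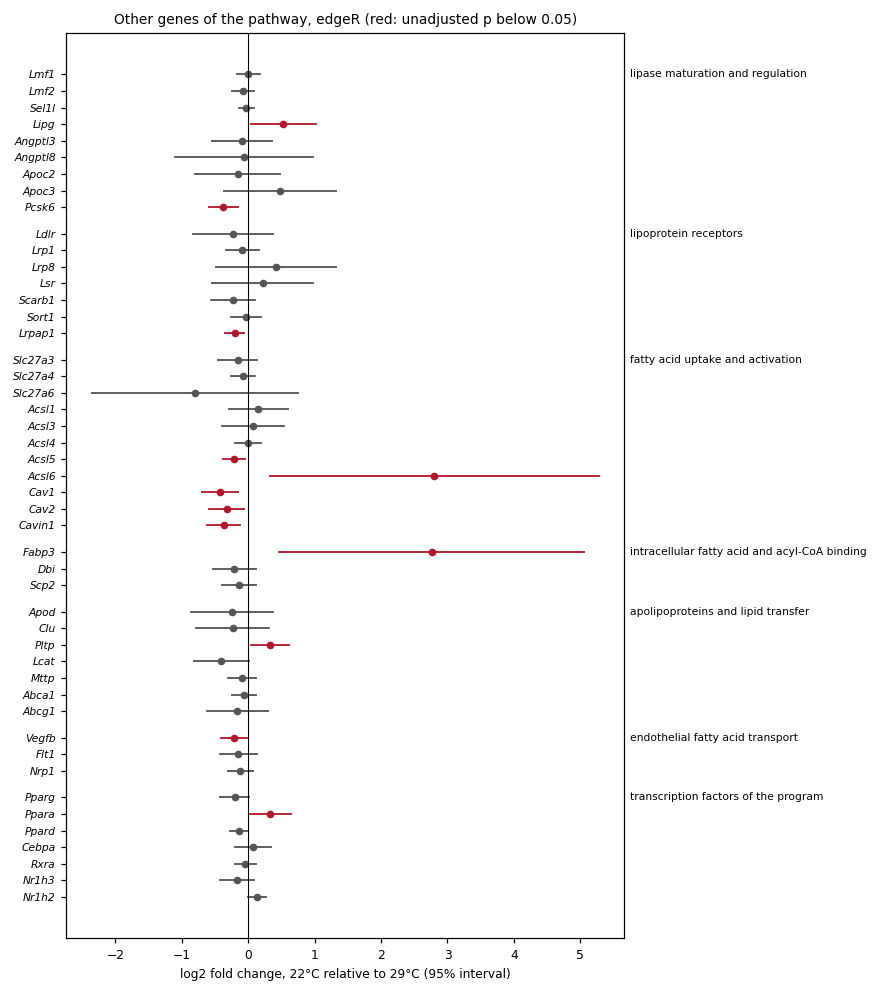
Log2 fold change at 22°C relative to 29°C (points, log2 axis) with 95% intervals (lines) for the 47 tested genes of the 7 lists by role, red where the unadjusted p was below 0.05. Most points lie left of 0, with *Cav1* at -0.43 and *Pcsk6* at -0.38, and *Acsl6* and *Fabp3* lie far right with wide intervals.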

How the data were processed

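The authors sequenced RNA of gluteal WAT (7 libraries at 22°C, 6 at 29°C), aligned reads with STAR 2.7.5a, counted them with featureCounts, and deposited raw counts per gene and regularized log2 values made with DESeq2. GRCm39 is the build in the submitters' processing notes. The annotation release and the strand setting are not given in the sources used here, so counts of overlapping genes, pseudogenes and close paralogs are uncertain. Gene identifiers were matched without version to GENCODE M21, which gave symbols for 34006 of 34419 genes and transcript lengths; count coordinates are not given.

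Raw counts were tested with edgeR 4.0.16 in R 4.3.3 (TMM, filterByExpr, quasi-likelihood F test, Benjamini-Hochberg over 17779 genes, called at P-adj below 0.1). The SE is the log2 fold change divided by the root of F. CPM are TMM-scaled and a prior count of 2 was added for log2 CPM. The floor of 3 counts was below every value of the 10 genes, whose lowest count was 647, and covers counting error only. No 2 libraries agreed within sampling noise (lowest chi-square per gene 15.5 over 78 pairs). Ratios and relations were compared with permutation tests in scipy 1.17.1. Alternatives were DESeq2 1.42.0, its size factors, limma 3.58.1 on the deposited log2 values, other filters, covariates, library subsets, a replicate block and leaving out each library. Each test was tried on simulated data. Promoter windows came from RefSeq (GRCm38.p6).

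The genes, lists, tests and alternatives were chosen with earlier results of these data known. By rule, the named genes were all 10, the most abundant tested gene of each pathway list with no call, the 2 most abundant of each marker list and the 3 most like *Slc27a1*. Other genes named from these lists, such as *Lep*, *Cavin1*, *Pcsk6*, *Fabp3* and *Pltp*, were chosen after their values were seen. The adipocyte, macrophage and endothelium scores as covariates, and the fit without the 2 libraries richest in muscle RNA, were added after seeing the data.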

Additional observations from a re-analysis of the deposited data

Results flagged for a closer look

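A sample far from the rest of its group was looked for in 28 groups of values, the 10 genes and 4 ratios at each temperature, of which chance alone marks about 1 in 20. It was found in 3. *Slc27a1* in replicate 1 at 29°C was 459.6 CPM, the lowest, and the nearest library of its group had 726 CPM. *Fabp5* in replicate 1 at 22°C was 108.8 CPM, the highest, and the nearest had 59.6 CPM. In that library the log2 ratio of *Fabp5* to *Fabp4* was the highest of its group too, -5.36 against -6.41 in the nearest. That library also had the highest skeletal muscle marker score, 11.6, and the highest *Vldlr*, 238 CPM. Replicate 1 at 29°C had the highest muscle score of its own group, 8.13. Beyond the covariate fits and relations over all libraries, the part of the muscle RNA in these values was not tested.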

How the results depend on the processing

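None of the 10 genes was called in 27 of 28 alternatives, and DESeq2 called 1 (*Slc27a1*, P-adj = 0.0994). Of the pathway genes edgeR called 0 and DESeq2 8, and edgeR called 1, *Pltp*, both with the macrophage score as a covariate and without the 2 libraries richest in muscle RNA. The count over all genes moved from 345 to between 4 (a term for the 2 clusters of totals) and 1676 (DESeq2) in the same alternatives. Leaving out 1 library at a time called 0 of the 10 genes and 0 to 2 pathway genes. The log2 fold changes of *Slc27a1*, *Vldlr*, *Apoe* and *Gpihbp1* kept their sign in all 27 alternatives run for each, and those of the other 6 genes did not. *Gpihbp1* came as close to no change as -0.0024. Of the 10 genes only *Slc27a1* had a P-adj below 0.1 in any alternative, that with DESeq2.

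With the muscle score as a covariate, the log2 fold change turned to 0.093 for *Lpl*, 0.079 for *Angptl4*, 0.011 for *Cd36* and 0.16 for *Apoc1*. With the adipocyte score it turned to 0.095 for *Lpl*, 0.026 for *Cd36* and 0.23 for *Apoc1*, and with the endothelium score to 0.062 for *Angptl4*. In limma on the deposited log2 values *Angptl4* was at 0.00083 and *Apoc1* at 0.00083. With a term for the 2 clusters of totals *Fabp4* was at -0.11 and *Fabp5* at -0.18, and within higher totals alone at -0.12 and -0.19, with the *Angptl4* to *Lpl* ratio at -0.13. Without the 2 libraries richest in muscle RNA *Fabp5* was at -0.058 and *Apoc1* at 0.10. The cause of each turn was not tested.

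Leaving out single libraries moved the log2 fold change between -0.22 and 0.049 for *Lpl*, between -0.27 and 0.059 for *Angptl4*, between -0.12 and 0.30 for *Fabp5* and between -0.11 and 0.13 for *Apoc1*. It moved the log2 ratio difference between -0.18 and 0.11 for *Gpihbp1* to *Lpl*, between -0.17 and 0.32 for *Angptl4* to *Lpl*, between -0.23 and 0.056 for *Fabp5* to *Fabp4* and between 0.25 and 0.51 for *Apoc1* to *Apoe*. Across libraries, removing group means gave r = 0.80 for *Cd36* with *Fabp4* and r = -0.79 for the muscle score with *Slc27a1*. Within higher totals r was 0.74 for *Lpl* with *Cd36*, 0.80 for *Gpihbp1* with the endothelium score, and -0.14 and -0.084 for the macrophage score with *Apoe* and *Apoc1*.

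Deviations from the group means correlated between 0.0508 and 0.513 in the 6 pairs of same-numbered libraries, all positive, and 7 of 12 libraries correlated best with their own number. The labels do not say what a number shares, so the numbers were not used as pairs in the main fit. What same-numbered libraries have in common was not tested. With the replicate block edgeR called 0 of the 10 genes and 214 genes in all, *Apoc1* turned to 0.072 and the *Gpihbp1* to *Lpl* ratio to 0.056. In that fit *Slc27a1* had a log2 fold change of 0.40 (edgeR P-adj = 0.106). Depth limits none of the 10 genes, whose lowest count was 647.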
